A study of Mus musculus with 8 samples.

Results

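The response to withdrawal of leukemia inhibitory factor (LIF) was compared between 2 lines of mouse embryonic stem cells, J1 wild-type cells and cells labelled as Rex-1 knockouts. Each line was measured with and without LIF on 2 single-colour Affymetrix arrays, 8 arrays in all. The comparison covers the probe sets whose mean log2 signal over the 8 arrays was at least 9, which are 10318 of the 45037 probe sets left after the control probe sets were removed. Of these, 9492 carry 1 gene symbol and stand for 6167 genes. The probe sets nearest this floor had mean log2 signals of 9.00001 inside it and 8.99992 outside it. The LIF change is the mean log2 signal without LIF less that with LIF. The interaction is the LIF change in the arrays labelled knockout less the LIF change in J1. A positive interaction thus means a more positive, or less negative, LIF change in the labelled knockout than in J1. It does not compare the levels of the 2 lines.

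The 4 groups were J1 cells with LIF, J1 cells without LIF, labelled knockout cells with LIF and labelled knockout cells without LIF. Within a group, the array whose title ends in the letter r is named the second array and the one without it the first. All cells grew on gelatin in a medium with fetal calf serum, and no feeder cells are mentioned. The protocol shared by the 8 arrays names 12 hours without LIF. For the knockout arrays without LIF the culture description speaks of LIF in the medium, against the title and the treatment entry, and these last were followed. J1 is listed as the strain on the labels of every array, and the deleted part of Rex-1 and the number of knockout clones are not given in the sources used here. The series describes each pair of arrays as biological replicates without explaining the letter r, so p-values here reflect only how far the arrays of a pair differ, which may be technical.

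LIF binds a receptor formed by LIFR and gp130, the product of Il6st, and the bound receptor activates JAK kinases that phosphorylate the transcription factor STAT3. In mouse embryonic stem cells STAT3 raises transcription of its own gene, of the feedback inhibitor Socs3 and of factors such as Klf4 that hold the naive pluripotent state. Cells deprived of LIF leave that state and move towards a primed, epiblast-like one. Zfp42 encodes Rex-1, a protein with zinc fingers whose expression is widely used to mark the naive state.

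The arrays labelled knockout kept a high Zfp42 signal, from 16729 to 17997 against 18217 to 23255 in J1, so directions below refer to labels. In such bulk RNA, fewer cells of a type and less RNA per cell cannot be told apart. The LIF change of Zfp42 was -0.10 in J1 and -0.06 in the labelled knockout. The embryonic stem cell markers Pou5f1, Sox2 and Nanog gave signals of at least 5035 on every array. The deposited columns had median signals from 114.2 to 143.5. The 2 arrays of a group differed in some genes by more than the LIF states did. Krt8, a keratin of simple epithelia, had signals of 6655 and 381 on the first and the second J1 array with LIF and of 6456 and 378 on those without it. In the labelled knockout the same probe set gave 1599 and 741 with LIF and 1658 and 716 without it. Its LIF changes were -0.03 in J1 and 0.00 in the labelled knockout. Another Krt8 probe set over the floor gave 5988 and 294 in J1 with LIF and 5566.5 and 202 without it. In the labelled knockout this second probe set gave 1019 and 69.3 with LIF and 794 and 271 without it. Its LIF changes were -0.32 in J1 and 0.80 in the labelled knockout, with an interaction of 1.13 (SE 2.82). The 3 of 10 trophoblast markers over the floor were Krt8, Krt18 and Tfap2c, and the summed signal of the 10 ranged from 3259 to 15960 in J1 with LIF and from 2579 to 14560 without it. In the labelled knockout that sum ranged from 3011 to 6514 with LIF and from 2574 to 5254 without it. Of the markers of fibroblasts or feeders 3 of 13 were over the floor, and their summed signal ranged from 9585 to 20640 in J1 with LIF and from 8889 to 20580 without it. In the labelled knockout that sum ranged from 9783 to 10080 with LIF and from 10050 to 10140 without it. Over the floor were, of the markers of endoderm 1 of 13, of neural ectoderm 1 of 10, of mesoderm 0 of 8 and of two-cell-like cells 1 of 8. The part of these other genes in the LIF comparison was not tested.

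No probe set was shown to respond differently in the 2 lines. limma called 0 of 10318 interactions at a Benjamini-Hochberg adjusted p under 0.05, a background of 0%, and the smallest adjusted p was 0.9999. At an unadjusted p under 0.05 there were 55 probe sets, a background of 0.533%. When r entered as a replicate block limma again called 0 interactions (0%), the smallest adjusted p was 0.9998, and 263 probe sets (2.55%) had an unadjusted p under 0.05. The interaction had a median SE of 0.27 and a median 95% interval of 0.63 on either side of the estimate. That interval lay within -1 to 1 for 7755 probe sets, 75.2% of the members, and for 9528, or 92.3%, with the block. For most probe sets a difference of LIF response beyond 2-fold thus lies outside the interval.

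limma called 0 LIF changes averaged over the 2 lines (0%), with 284 probe sets (2.75%) at an unadjusted p under 0.05 and a smallest adjusted p of 0.180 for Spink1. With the replicate block it called 9 (0.0872%), with 902 (8.74%) at an unadjusted p under 0.05, and every one of the 9 fell without LIF. They are probe sets of Spink1, Socs3, Abca1, Pim3, Fblim1, Yes1, Icam1 and Cltb and 1 without a single gene symbol. Within J1 alone limma called 0 with or without the block (0% each), with 133 (1.29%) and, with the block, 453 (4.39%) at an unadjusted p under 0.05. Within the labelled knockout it also called 0 with or without the block (0% each), with 208 (2.02%) and 736 (7.13%) at an unadjusted p under 0.05. Leaving out the first or the second J1 array without LIF, with no block, gave 4 averaged calls each time, the 3 Socs3 probe sets and Bcl3.

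Responses were therefore described by whether the arrays with and without LIF overlapped. They did not overlap in J1 for 2241 probe sets (21.7%) and in the labelled knockout for 2466 (23.9%). In 508 (4.92%) they overlapped in neither line and the direction was the same, and in 169 (1.64%) the directions were opposite. With 2 arrays on each side, arrays often separate without any effect of LIF, so these counts are no test. A probe set was counted as alike when the arrays overlapped in neither line and the LIF change had the same sign and a size of at least 0.5 in each. It was counted as unlike when the change was at least 1 in size without overlap in 1 line and under 0.25 in size in the other, or at least 0.5 in size in opposite directions without overlap. By this description 40 probe sets (0.388%) of 27 named genes were alike, 29 lower (0.281%) and 11 higher (0.107%) without LIF, and 5 were unlike (0.0485%). The alike count was 68 without the first J1 array without LIF, and the unlike count moved between 9 and 74 as single arrays were left out. Across all 10318 probe sets the LIF changes of the 2 lines correlated at r = 0.394, a description over probe sets that share arrays within each line. The changes taken from single arrays correlated at 0.145 within J1, at 0.320 within the labelled knockout and at 0.031 to 0.407 between the lines.

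**Figure D1:**
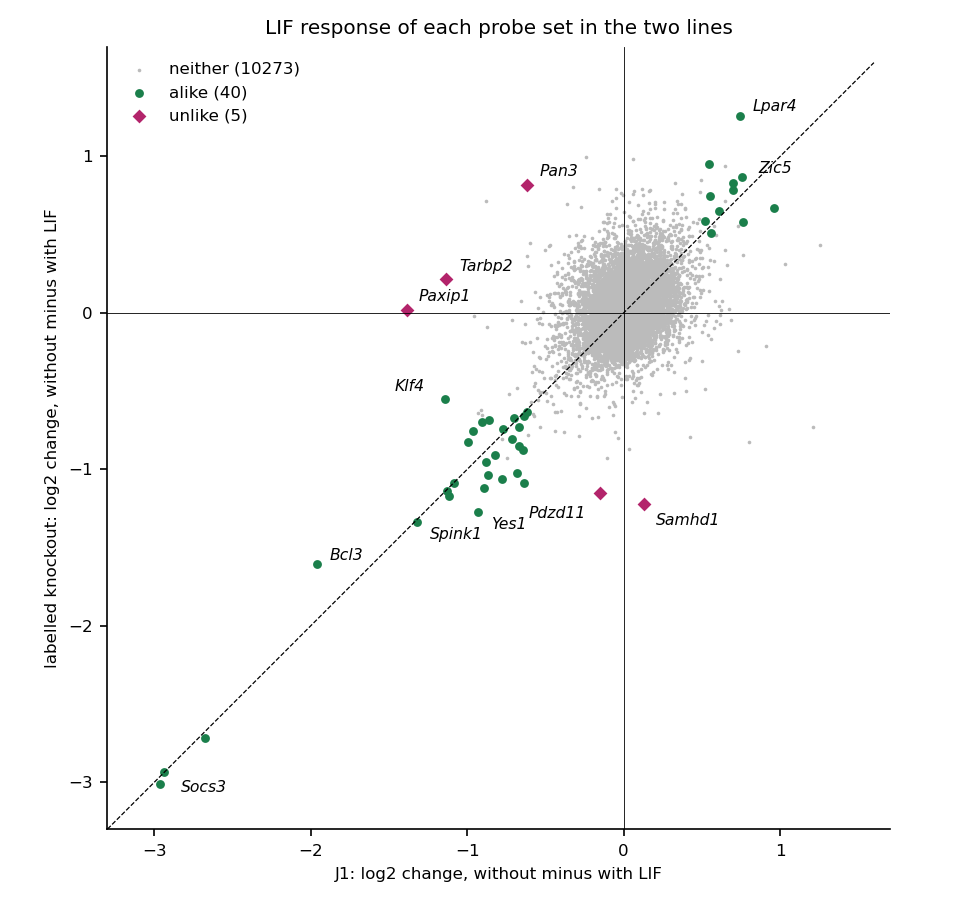
LIF change of each of the 10318 probe sets in J1 (horizontal axis, log2 units) and in the labelled knockout (vertical axis, log2 units). Green points mark the 40 alike and purple diamonds the 5 unlike probe sets, the dashed line marks equal change. The 3 Socs3 probe sets sit near the line at about -3 in each line, and the unlike probe sets lie apart from it.

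Socs3, the feedback inhibitor of JAK and STAT signalling, had the largest LIF change in each line. The signals of its brightest probe set were 6253 and 5505 in J1 with LIF and 1549 and 364 without it. The labelled knockout gave 7052 and 6546 with LIF and 776 and 914 without it. With LIF every array was above every array without it, and the second J1 array without LIF was the lowest of the 8. The LIF change was -2.97 (SE 0.56) in J1 and -3.01 (SE 0.56) in the labelled knockout, with an interaction of -0.05 (SE 0.79, 95% interval -1.90 to 1.81). The interval is wide because the first and the second J1 array without LIF differed, and without one or the other of them the interaction was 1.00 or -1.09. The other probe sets of Socs3 had interactions of 0.00 and -0.04.

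The region upstream of the Socs3 start is shown because it holds the letters TTCNNNGAA, the spacing that dimers of STAT proteins are known to bind, as does that of Icam1, the adhesion molecule gene described below. The motif is its own reverse complement, so 1 search covers both strands, and no other motif was searched. In the RefSeq promoter table of GRCm38.p6, windows from 250 bases before to 50 bases after the start, it was found in 4 of the 16 alike genes with a promoter that were lower without LIF, 25%, and in 0 of the 8 that were higher. The share was 7.83% of 5111 genes over the floor and 9.55% of all 27025 genes in the table. A match describes letters in a window. The other genes with a match were Urah and Tgm1. Below, the 250 bases before the start are given 5′ to 3′ on the gene's strand with the match in capitals, Socs3 from chr11:117969367-117969616 on the minus strand and Icam1 from chr9:21015690-21015939 on the plus strand.
Socs3: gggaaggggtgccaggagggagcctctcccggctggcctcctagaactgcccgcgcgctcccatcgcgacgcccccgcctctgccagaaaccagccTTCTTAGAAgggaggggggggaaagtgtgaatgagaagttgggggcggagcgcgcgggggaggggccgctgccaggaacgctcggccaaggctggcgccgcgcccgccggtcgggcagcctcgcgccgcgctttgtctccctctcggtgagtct
Icam1: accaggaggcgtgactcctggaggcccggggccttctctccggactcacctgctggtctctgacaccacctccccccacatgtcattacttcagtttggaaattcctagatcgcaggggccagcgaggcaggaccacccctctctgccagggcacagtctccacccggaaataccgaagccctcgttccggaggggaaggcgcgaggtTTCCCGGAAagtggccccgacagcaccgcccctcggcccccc

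Bcl3 and Stat3 were lower without LIF in each line. Bcl3, a nuclear regulator of NF-kB proteins, gave signals of 1205 and 1047 in J1 with LIF and 458 and 181 without it. Its signals in the labelled knockout were 1040 and 945 with LIF and 327 and 325 without it. Its LIF changes were -1.96 and -1.60 (SE 0.37 each), and its interaction of 0.36 (SE 0.53) had an interval of -0.88 to 1.59. Stat3 itself gave 1997 and 2328 in J1 with LIF, 1389 and 699 without it, 1958 and 2363 in the labelled knockout with LIF, and 966 and 992 without it. The change was -1.13 in J1 and -1.14 in the labelled knockout, and the interaction was -0.01 (SE 0.42, interval -0.998 to 0.985). The other Stat3 probe set over the floor was also alike. It changed by -0.78 in J1 and -1.06 in the labelled knockout, with an interaction of -0.28 (SE 0.32). For both genes the second J1 array without LIF was the lowest of the 8, and the sign of the Bcl3 interaction turned without it, to -0.31. Pim3, a serine/threonine kinase, had signals of 3806 and 4288 against 2803 and 2396 in J1 and of 3951 and 5049 against 2297 and 2582 in the labelled knockout. Its interaction was -0.23 (SE 0.25) and that of its other probe set over the floor, the one called with the block, 0.18 (SE 0.47).

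Klf4 had the largest interaction among the alike probe sets. This factor of the naive state gave signals of 4963 and 3535 in J1 with LIF and 2399 and 1502 without it. The labelled knockout arrays gave 3529 and 4357 with LIF and 2920 and 2450 without it. The groups did not overlap in either line, and the change was -1.14 in J1 and -0.55 in the labelled knockout (SE 0.27 each). The interaction of 0.59 (SE 0.38, interval -0.30 to 1.48) had an unadjusted p of 0.165 and was not called by limma. It stayed between 0.25 and 0.93 as each array was left out, and it was 0.30 (SE 0.64) for the other Klf4 probe set.

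Genes outside the core circuit were lower without LIF in each line too. Spink1, a secreted protease inhibitor, had signals of 814 and 843 against 367 and 299 in J1, and of 1263 and 1050 against 524 and 396 in the labelled knockout. Its interaction of -0.02 (SE 0.28) had an interval of -0.66 to 0.63, and with the block the averaged change of -1.33 was called by limma (adjusted p = 0.0211). Abca1, the exporter of cellular cholesterol, had 787 and 687 against 453 and 360 in J1 and 849 and 797 against 391 and 410 in the labelled knockout. Its interaction was -0.17 (SE 0.23, interval -0.72 to 0.37), and the averaged change of -0.95 was called by limma with the block (adjusted p = 0.0358). Yes1, a kinase of the SRC family, had 590 and 880 against 319 and 449 in J1 and 900 and 1014 against 406 and 384 in the labelled knockout, with an interaction of -0.35 (SE 0.34). A brighter Yes1 probe set, with a mean log2 signal of 10.81, was not counted as alike. Its LIF changes were -0.93 and -0.64, and its interaction was 0.29 (SE 0.50). Icam1, which carries the motif shown above, had 1348 and 831 against 830 and 393 in J1 and 1304 and 917 against 605 and 419 in the labelled knockout. In each Icam1 group the first array was the brighter, the J1 groups were separated by 831 against 830 only, and the interaction was -0.23 (SE 0.57). With the block limma called the averaged changes of the dimmer Yes1 probe set, -1.10, and Icam1, -1.004 (adjusted p = 0.0487 for each). Pcolce, an enhancer of procollagen processing, had 4476 and 3058 against 2739 and 1257 in J1 and 2854 and 3460 against 1726 and 1821 in the labelled knockout, with an interaction of 0.17 (SE 0.50). The other Pcolce probe set over the floor had an interaction of -0.08 (SE 0.55).

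The remaining alike genes that were lower without LIF were Urah, an enzyme of urate breakdown, Fblim1, a filamin-binding adaptor, Fzd5, a WNT receptor, Tgm1, a transglutaminase, Khdc3, Cltb, a clathrin light chain, Hmces, a sensor of abasic DNA sites, and Prr13. They are named because they complete the class, and 4 further probe sets carry no single symbol. Over the 29 probe sets the median LIF change was -0.88 in J1 and -0.95 in the labelled knockout, beside 0.01 and 0.01 for all members. The medians of the single-array changes of these 29 were -0.68 on the first and -1.0 on the second J1 arrays, and -0.89 and -0.96 on those of the labelled knockout. The second J1 array without LIF was below the first for 22 of the 29. The levels of the 2 lines stood apart in the same direction, by at least 0.5 and without overlap at each LIF state, for 5 of the 40 alike probe sets. The background was 0.882% of all members, which were not chosen by size and lack of overlap as the 40 were.

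Fewer of the alike probe sets were higher without LIF, and 2 of their 9 named genes, Zic5 and Dnmt3a, are in the list of primed epiblast genes. That list, chosen with earlier results of these data known, holds 10 of the 6167 genes over the floor. Dnmt3a, a de novo DNA methyltransferase, had signals of 1692 and 1573 in J1 with LIF and 2478 and 2312 without it. Its labelled knockout signals were 1146 and 941 with LIF and 1820 and 1674 without it. The groups did not overlap in either line, and its LIF changes were 0.55 and 0.75 (SE 0.15 each) with an interaction of 0.20 (SE 0.22, interval -0.31 to 0.71). Other Dnmt3a probe sets over the floor had interactions of -0.18 (SE 0.31) and 0.19 (SE 0.23). Grhl2, a transcription factor of epithelial cells, had 905 and 956 against 1370 and 1471 in J1 and 913 and 781 against 1364 and 1296 in the labelled knockout. Its interaction of 0.04 (SE 0.21, interval -0.44 to 0.52) was among the most precisely measured of the named genes. Neither the averaged change of Dnmt3a, 0.65, nor that of Grhl2, 0.63, was called by limma with the block (adjusted p = 0.0524 and 0.0788).

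Zic5, a zinc finger factor of the primed epiblast, had 1217 and 819 against 1553 and 1832 in J1 and 1253 and 712 against 2220 and 1336 in the labelled knockout, with an interaction of 0.11 (SE 0.49). The other Zic5 probe set over the floor had an interaction of -0.30 (SE 0.44). Lpar4, a receptor of lysophosphatidic acid, had 552 and 346 against 611 and 882 in J1 and 419 and 231 against 912 and 609 in the labelled knockout. Its averaged change of 1.00 was the highest of the members, and its interaction was 0.51 (SE 0.52, interval -0.71 to 1.74). For Zic5 and Lpar4 the second array with LIF was the lowest in each line. Dusp16, a phosphatase of MAP kinases, had 590 and 473 against 825 and 720 in J1 and 547 and 355 against 949 and 765 in the labelled knockout. Its interaction was 0.40 (SE 0.34), and its block interval of -0.03 to 0.84 was the one nearest to leaving out 0 among the named alike genes. Stox2, Mcf2 and Tcf12, a helix-loop-helix factor, had interactions of 0.13 (SE 0.51), 0.09 (SE 0.33) and 0.07 (SE 0.40). For the other Tcf12 probe set over the floor the interaction was -0.08 (SE 0.35). The class is completed by Bnc2, and over its 11 probe sets the median LIF change was 0.70 in J1 and 0.75 in the labelled knockout.

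**Figure D2:**
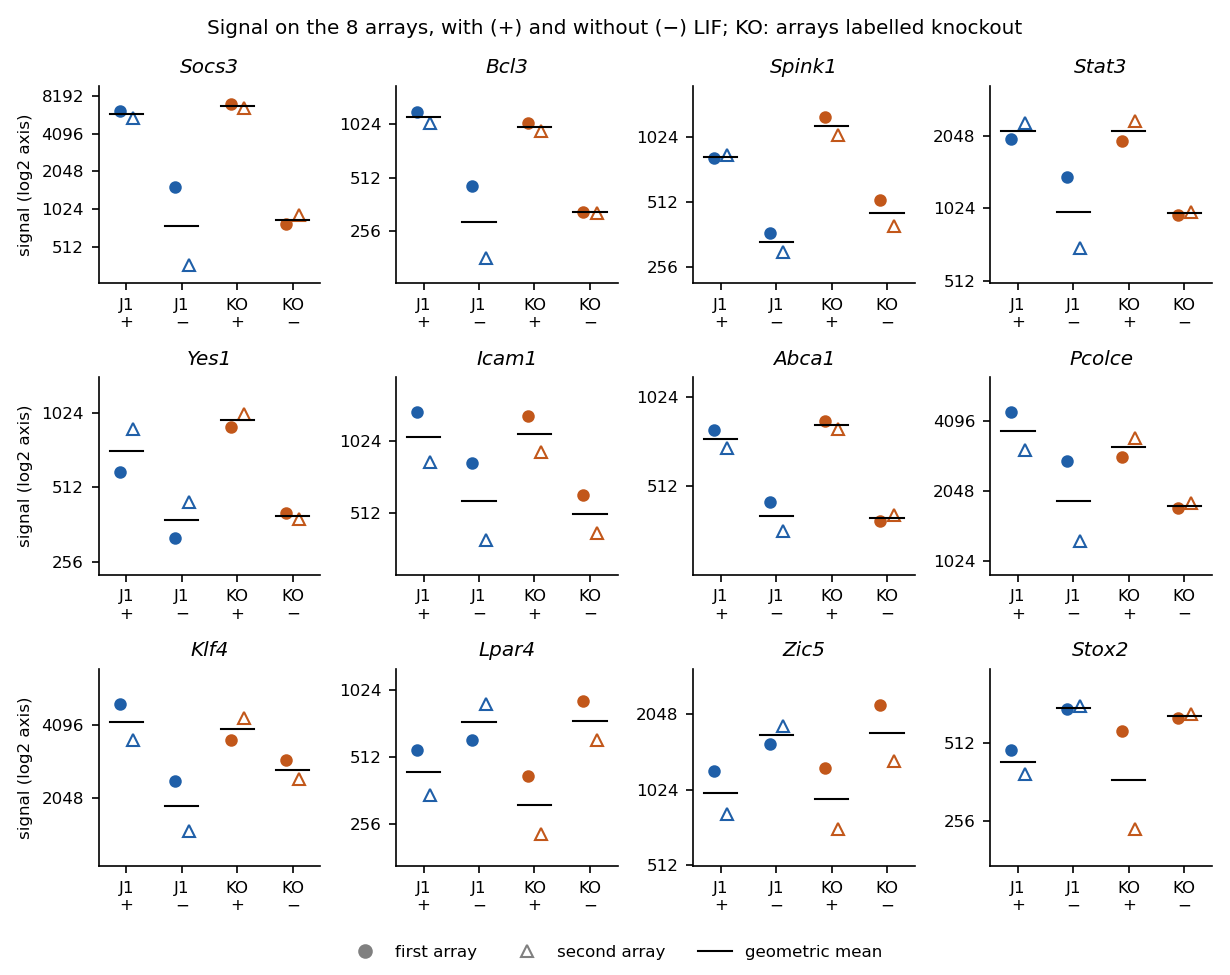
Signal of 12 alike genes on each of the 8 arrays (vertical axis, log2 scale), by line and LIF state on the horizontal axis. Circles are the first and triangles the second array, and bars are geometric means. For Socs3, Bcl3 and Stat3 the second J1 array without LIF lies below all others, and the labelled knockout arrays without LIF lie close together.

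The interactions of the 40 alike probe sets ranged from -0.45 to 0.59. In the limma fit 0 of 40 had an unadjusted p under 0.05, beside 0.533% of all members, or 2.55% with the block. The smallest unadjusted p was 0.155, or 0.0655 with the block. The 95% interval lay within -1 to 1 for 19 of the 40 (47.5%) and with the block for 30 (75%), so a difference of more than 2-fold lies outside the interval for these and not for the rest. The change was the larger in the labelled knockout for 28 of the 40 (70%), beside 5853 of all 10318 members (56.7%). The alike rule required the same direction, no overlap and a change of at least 0.5 in each line. It was applied to these same values and limits how far the lines can differ, so these counts are no test of likeness. The sizes describe how close the responses were, and the interval of each probe set is the measure of it. The alike probe sets with the smallest margin were those of Bnc2, with changes of 0.56 and 0.51, Tcf12, with 0.52 and 0.59, and Dusp16, with 0.55 and 0.95. Just outside were Upp1, with -0.49 in J1 and -0.56 in the labelled knockout, Tdgf1, with -0.49 and -0.51, and Klhl7, with 0.495 and 0.85.

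**Figure D3:**
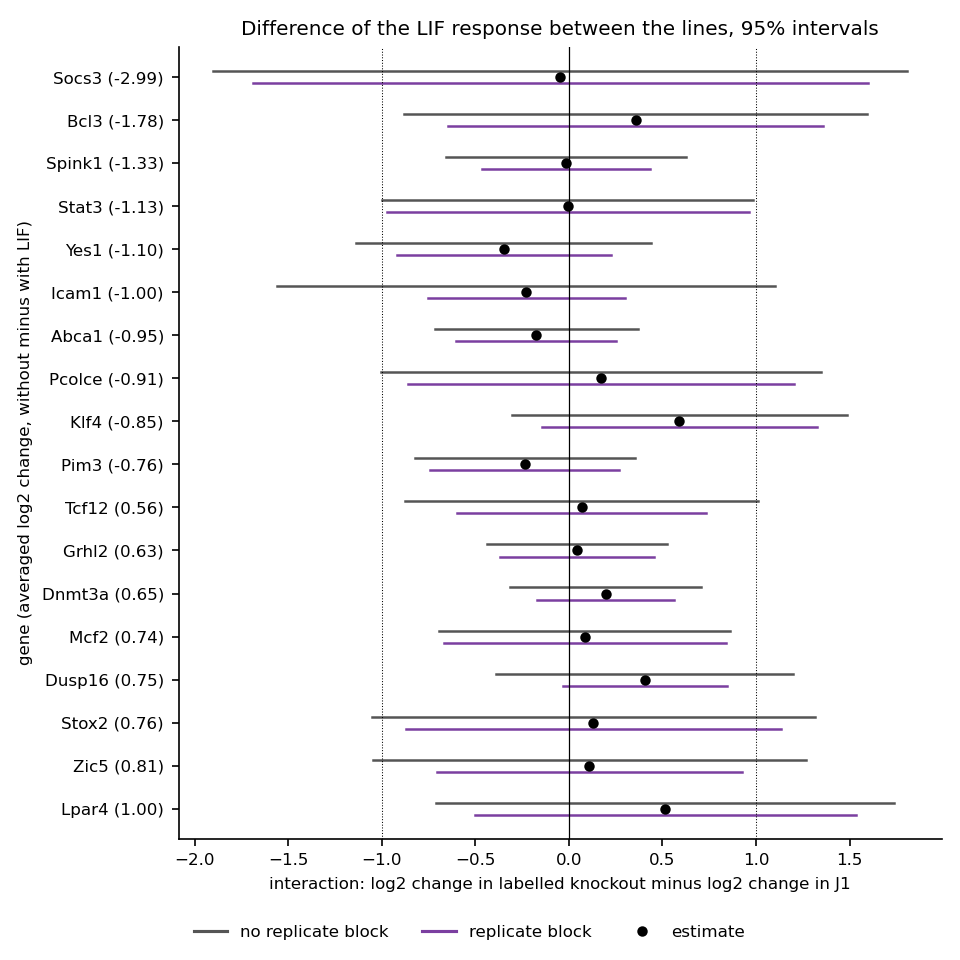
Interaction (horizontal axis, log2 units) of the 18 named alike genes with its 95% limma interval, without the replicate block (grey) and with it (purple). Genes are ordered by averaged LIF change, given in parentheses, and dotted lines mark -1 and 1. All 18 intervals include 0, and that of Socs3 is the widest.

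The gene lists, chosen with earlier results of these data known, describe where the responses of the lines ran together. Of 30 LIF and STAT3 target genes 16 were over the floor, and 11 of these (68.8%) were lower without LIF in both lines, beside 27.45% of all 6167 genes. Their median LIF change was -0.59 in J1 and -0.32 in the labelled knockout. Of the 16, 6 were alike, beside 26 of all 6167 genes, each taken by its probe set of highest mean. These were Socs3, Bcl3, Stat3, Pim3, Klf4 and Icam1. The J1 median was -0.32 when the second J1 array without LIF was left out, and the labelled knockout median was -0.57 when its second array with LIF was left out. The median interaction was 0.11, and it turned to -0.21 without the second J1 array without LIF and to -0.09 without the first J1 array with LIF. Tfcp2l1, a naive factor, had LIF changes of -0.56 and -0.36, and Sgk1, a serum-responsive kinase, -0.24 and -0.61. Pim1, a kinase related to Pim3, had 0.24 and 0.33, with -0.33 and 0.23 for its other probe set over the floor, and Myc had -0.05 and 0.08. The always-named genes Mras, Junb, Otx2, Zic2 and Fos lay below the floor.

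Of 25 naive pluripotency factors 23 were over the floor and 17 were lower without LIF in both lines (73.9%), with medians of -0.14 and -0.10. As single arrays were left out the J1 median ran from -0.27, without the first array with LIF, to -0.04, without the first array without LIF. The labelled knockout median ran from -0.22 to -0.08 over the same arrays of that line. Esrrb, an orphan nuclear receptor, had signals of 2537 and 2708 against 2101 and 1777 in J1 and of 2983 and 3653 against 2499 and 2487 in the labelled knockout. It was lower by close amounts, -0.44 and -0.41, with an interaction of 0.03 (SE 0.23). The other Esrrb probe sets over the floor had interactions of 0.27 and -0.36. Nanog, a homeobox factor, had 6256 and 8448 against 5035 and 7153 in J1 and 8150 and 9701 against 6471 and 8579 in the labelled knockout, so its groups overlapped in both lines. Its LIF changes of -0.28 and -0.26 gave an interaction of 0.02 (SE 0.35), or 0.02 (SE 0.16) with the block. Pou5f1 had an interaction of -0.05 (SE 0.20) and Sox2 one of 0.11 (SE 0.25). Klf5 and Tbx3 had interactions of 0.25 (SE 0.85) and 0.28 (SE 0.30). Fbxo15, an F-box protein gene expressed in pluripotent cells, had LIF changes of -0.59 and -0.57.

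Primed epiblast genes pointed the other way. Of 20 listed, 10 were over the floor and 8 were higher without LIF in both lines (80%, beside 32.71% of all genes), with medians of 0.25 and 0.33. Leaving out the second J1 array with LIF gave a J1 median of -0.07. Besides Zic5 and Dnmt3a, Sox4 had LIF changes of 0.35 and 0.70 and Sox11 of 0.33 and 0.66. Dnmt3b had 0.44 in J1 and 0.10 in the labelled knockout with an interaction of -0.34 (SE 0.43). Its other probe set over the floor had 0.55 and 0.34 with an interaction of -0.22 (SE 0.61). Tdgf1, a co-receptor of NODAL, was lower in both lines and Foxd3 had opposite signs.

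Of the 15 genes of the LIF receptor and STAT pathway 10 were over the floor, and Stat3 was the alike one. Lifr, the LIF-binding receptor chain, had signals of 1944 and 1898 in J1 with LIF and 1185 and 1470 without it. The labelled knockout had 1982 and 1991 with LIF and 1813 and 1985 without it. The groups were separated in J1 and overlapped in the labelled knockout, with changes of -0.54 and -0.07. The interaction of 0.48 (SE 0.22, interval -0.04 to 0.99) had an unadjusted p of 0.0639, or 0.0299 with the block, and limma called it in neither fit. Il6st, which encodes gp130, had LIF changes of 0.01 and -0.07 and Jak1 of 0.33 and 0.12.

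For the other lists the medians over all arrays are given first in J1 and then in the labelled knockout. FGF and ERK feedback genes had medians of 0.04 in J1 and 0.15 in the labelled knockout, with Spry2, an inhibitor of receptor tyrosine kinase signalling, at -0.46 and -0.34. Immediate early genes had -0.06 and -0.09, and the MYC network 0.06 and -0.05. Egr1, an immediate early gene, had LIF changes of -0.06 and -0.58, with an interaction of -0.52 (SE 0.70). The labelled knockout arrays without LIF gave 1030 and 331 for Egr1. BMP and ID genes had -0.00355 and 0.27, with Id2 and Id3, inhibitors of helix-loop-helix factors, at 0.12 and 0.63 and at 0.07 and 0.46. Id1, of the same family, was lower without LIF, at -0.29 and -0.25, with an interaction of 0.04 (SE 0.60). Nodal and Lefty genes had -0.05 and 0.25, with Nodal at 0.13 and 0.38 and Lefty1, its antagonist, at 0.25 and 0.59. WNT genes had 0.17 and 0.23, and the receptor gene Fzd7 had 0.42 and 0.55. DNA methylation enzymes had 0.04 and 0.05, with Tet1, which oxidises methylcytosine, at -0.45 and -0.15. The medians were 0.10 and 0.00 for amino acid and unfolded protein stress genes, -0.03 and -0.10 for glycolysis and hypoxia genes, -0.06 and -0.02 for cholesterol synthesis genes and -0.01 and 0.04 for cytoskeleton and adhesion genes. For each of these lists other than the WNT genes, the median turned its sign in at least 1 line when some single array was left out. The cytoskeleton median in J1 ran from -0.58, without the second array with LIF, to 0.40, without the second array without LIF. Cytosolic ribosomal protein genes had -0.07 in J1 and -0.25 in the labelled knockout, after quantile normalization -0.01 and -0.02, and 0.26 in J1 without the second J1 array with LIF. None of the interactions in any list was called by limma in either fit.

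**Figure D4:**
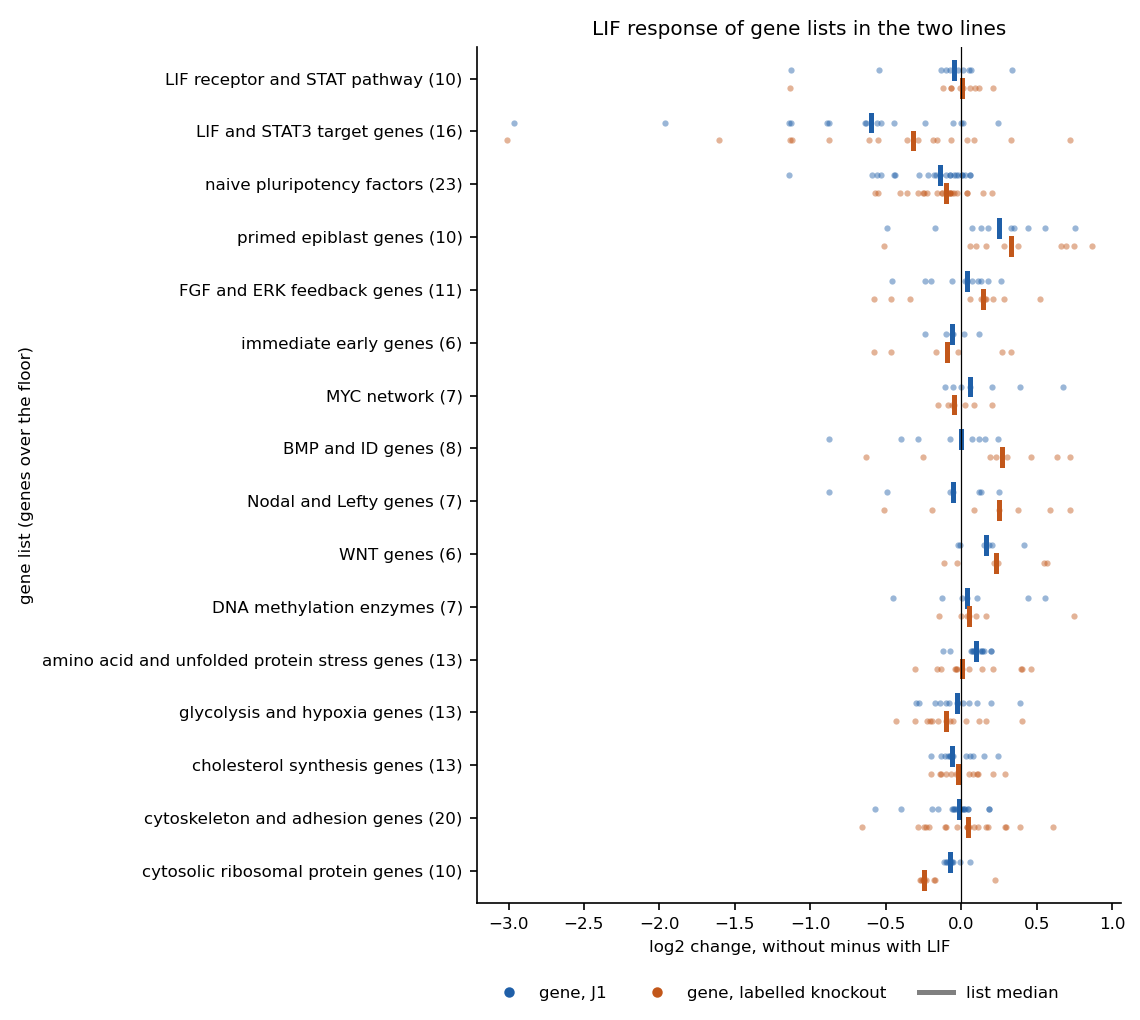
LIF change (horizontal axis, log2 units) of the genes of 16 lists over the floor in J1 (blue) and in the labelled knockout (orange), with a bar at each list's median and the number of genes in parentheses. The LIF and STAT3 targets reach furthest below 0, with medians of -0.59 and -0.32, and the primed epiblast genes lie mostly above 0, with medians of 0.25 and 0.33.

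The 5 unlike probe sets were those of Pan3, Samhd1, Tarbp2, Paxip1 and Pdzd11. Pan3, a subunit of a poly(A) nuclease, had signals of 654 and 1153 in J1 with LIF, 600 and 535 without it, 469 and 450 in the labelled knockout with LIF and 711 and 924 without it. The groups overlapped in neither line and the directions were opposite, -0.62 in J1 and 0.82 in the labelled knockout (SE 0.27 each). The interaction of 1.43 (SE 0.38, interval 0.54 to 2.32) had the smallest unadjusted p, 0.00628, and was not called by limma. With the second J1 array with LIF left out it was 1.02 and the probe set no longer counted as unlike. Another Pan3 probe set over the floor had an interaction of 0.18 (SE 0.38).

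Samhd1, a hydrolase of deoxynucleotides, had 466 and 624 in J1 with LIF, 515 and 674 without it, 1021 and 1671 in the labelled knockout with LIF and 569 and 551 without it. The labelled knockout arrays with LIF stood above the other 6, and the change there was -1.22 against 0.13 in J1 (SE 0.27 each). The interaction of -1.35 (SE 0.38) had an unadjusted p of 0.000915 with the block, the smallest in that fit. Its other probe sets over the floor had interactions of -0.07 (SE 0.23) and -0.62 (SE 0.31). Pdzd11, a PDZ-domain scaffold protein gene, had 425 and 479 against 698 and 236 in J1 and 590 and 1434 against 477 and 360 in the labelled knockout. Its interaction of -0.996 (SE 0.78) was -0.06 (SE 0.27) for its other probe set over the floor.

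Tarbp2 and Paxip1 counted as unlike through a change in J1. Tarbp2, a partner of Dicer, had 612 and 1266 against 490 and 329 in J1 and 360 and 555 against 533 and 507 in the labelled knockout. Paxip1, a protein of the DNA damage response, had 702 and 986 in J1 with LIF and 699 and 145 without it, beside 605 to 839 on the 4 labelled knockout arrays. The Paxip1 interaction of 1.41 (SE 0.89) was 0.27 without the second J1 array without LIF. The interaction of Tarbp2 was 1.35 (SE 0.53), and 0.08 (SE 0.38) for its other probe set over the floor. Those of the other Paxip1 probe sets over the floor were 0.25 (SE 0.39) and 0.23 (SE 0.21). Samhd1 ceased to count as unlike without the first J1 array without LIF or without the second array with LIF of either line. Tarbp2 did so without the second J1 array with LIF or without the second array without LIF of either line. Paxip1 did so without the second J1 array without LIF or the second labelled knockout array with LIF, and Pdzd11 without the first J1 array without LIF or without the second labelled knockout array of either LIF state.

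Interactions of at least 1 in size were found for 15 probe sets (0.145%), among them Pan3, Samhd1, Tarbp2 and Paxip1. In Dennd6b, a regulator of RAB proteins, and Uhrf2, a ubiquitin ligase, the labelled knockout arrays were higher without LIF, by 1.00 and 0.70, and the J1 values were -0.24 and -0.36, with overlap between the J1 groups. Their interactions were 1.24 (SE 0.44) and 1.06 (SE 0.38), and that of Pskh1, a protein kinase, was -1.01 (SE 0.34), with unadjusted p of 0.0239, 0.0269 and 0.0202, none called by limma. E2f5, a repressor of the cell cycle, had the largest interaction, -1.94 (SE 1.48), from J1 signals of 202 and 2099 with LIF and 1237 and 1837 without it. In the labelled knockout E2f5 had 1970 and 4886 with LIF and 1060 and 3301 without it, and its other probe sets over the floor had interactions of 0.25 and 0.23. Smad7, an inhibitor of TGF-beta signalling, had 3864 and 1239 against 1024 and 1387 in J1 and 3913 and 476 against 4822 and 1044 in the labelled knockout, with an interaction of 1.59 (SE 1.52). Tbca, Aph1a and Hdac11 had interactions of -1.63 (SE 1.16), -1.12 (SE 0.79) and -1.22 (SE 0.96). Other probe sets over the floor had an interaction of 0.15 for Smad7, of -0.81 for Aph1a and of -0.18, 0.08 and -0.02 for Tbca. The class also held 1 probe set each of H1f2 and Krt8 and 1 without a symbol.

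The names of all 5 unlike probe sets and of 10 of the 15 with a large interaction (66.7%) end in x_at, beside 9.08% of all members and 7.5% of the alike. The manufacturer gives that ending to sets whose probes can also match other transcripts. Its part in these values was not tested. Interactions of other probe sets over the floor are given above for Pan3, Samhd1, Pdzd11, Tarbp2, Paxip1, E2f5, Smad7, Aph1a and Tbca. Pskh1 and Dennd6b had other probe sets only below the floor. Their interactions were 0.28 (SE 0.50) for Pskh1 and -0.57 (SE 0.58), 2.34 (SE 0.65) and 1.78 (SE 1.61) for Dennd6b.

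**Figure D5:**
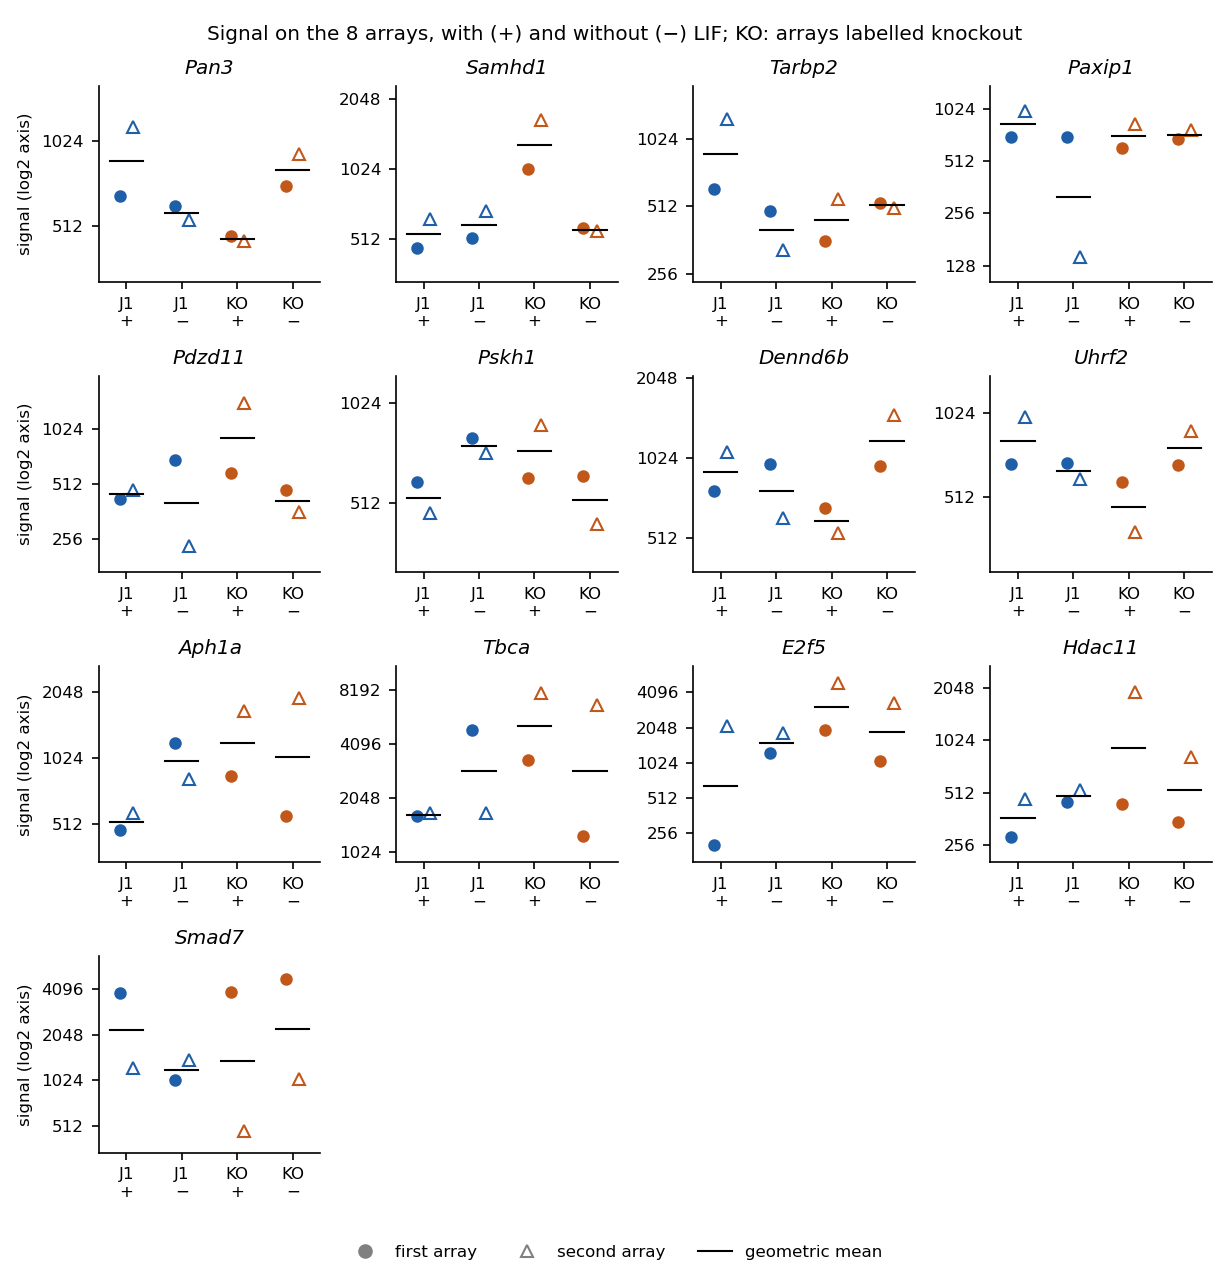
Signal of the 5 unlike and 8 further genes of large interaction on each of the 8 arrays (vertical axis, log2 scale), by line and LIF state. Circles are the first and triangles the second array, and bars are geometric means. In Pan3 the J1 groups and the labelled knockout groups separate in opposite directions, and in E2f5, Smad7 and Tbca the replicate arrays of several groups lie far apart.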

How the data were processed

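Expression was measured on 8 Affymetrix arrays, and groups follow the labels, 2 arrays in each of 4. The values the authors deposited are linear signal intensities per probe set. GCRMA is named, without a version, in the submitters' processing notes, yet the deposited intensities carry no log and each column has a mean of 500 after the lowest and highest 2% are left out, so the step that made them is unknown. No background or detection value was used, the number of arrays limits the precision, and dim probe sets hold an unknown share of background. The 64 control probe sets were removed. Genes were named through the platform annotation, in which 34945 probe sets have 1 symbol, 932 several and 9160 none, updated through RefSeq of GRCm38.p6, where 0 symbols changed.

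The log2 of each intensity, with no pseudocount, entered limma 3.58.1 (R 4.3.3) as 4 group means, with eBayes without a trend and Benjamini-Hochberg adjustment over the 10318 members. The fit was tested on simulated data. Whether r pairs the arrays was checked: the difference of second and first array correlated between groups at 0.271 to 0.722 over the members, for all 6 pairs of groups over 0.1, so the fit with r as a replicate block is given beside the fit without it where it changes a call. At most 0.00222% of the values of replicate arrays were identical.

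Named genes were the 12 probe sets of smallest p among interactions of at least 1 in size and the 8 alike genes of largest averaged change in each direction. Added to them were up to 5 unlike genes of each kind and 24 fixed genes. A fixed gene was shown by its probe set of highest mean. An alike or unlike gene was shown by the one of highest mean among its probe sets in that class. Members of gene lists were named with their list. The members, the 16 pathway lists and the 6 marker lists were chosen with earlier results of these data known, and the counts of names ending in x_at and of levels that differ between the lines were added after the values were seen. Alternatives covered the floor, scaling, a pseudocount of 16, 1 probe set per gene, the variance prior, the block, the threshold and each array left out. Python 3.11.15 with matplotlib 3.10.9 made the figures.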

Additional observations from a re-analysis of the deposited data

Results flagged for a closer look

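The interaction of the Pan3 probe set was 1.43 on the log2 scale, and it stood out because every J1 array without LIF was below the J1 arrays with LIF while every labelled knockout array without LIF was above those with LIF. The difference was tested by the limma interaction, which did not call it (unadjusted p = 0.00628, smallest adjusted p over all members 0.9999). The J1 separation is between 600 without LIF and 654 with it, and the other Pan3 probe set over the floor had LIF changes of 0.03 in J1 and 0.22 in the labelled knockout.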

How the results depend on the processing

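limma called 0 interactions in every setting run: floors of 8 and 10, the whole table, quantile normalization, a pseudocount of 16, 1 probe set per gene, trend and robust prior, the replicate block with or without that prior, an adjusted p under 0.10 and each array left out. The averaged LIF count of 0 became 9 with the replicate block and 24 with the block, trend and robust prior, and ran from 0 to 4 as arrays were left out. The J1 count ran from 0 to 4 and the labelled knockout count from 0 to 2 over the arrays left out. The block changed no other call. The alike count of 40 was 65 at a floor of 8, 19 at a floor of 10, 943 over the whole table (log2 of at least 4 on at least 2 arrays), 26 with 1 probe set per gene, 8 with a change of at least 1 in each line and 19 with the interaction interval within -1 to 1. It ran from 41 to 68 over the arrays left out, of which 33 to 40 probe sets were shared with the 40. The unlike count of 5 was 20 at a floor of 8, 0 at a floor of 10, 2517 over the whole table, 1 with 1 probe set per gene and 3 with an unadjusted interaction p under 0.05, and ran from 9 to 74 over the arrays left out. The causes were not tested beyond what each setting changes by construction. Of 503 values of named interactions under alternatives 458 moved by less than their SE, and of 540 list medians 358 stayed within their spread and 182 moved. With an array left out, a group of 1 array is assumed to vary like the others. Signal over background is unknown, so how much of the wide spread at lower floors it sets was not tested.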

Other observations

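Some alike probe sets had different levels in the 2 lines at each LIF state. In 5 of the 40 (12.5%) the arrays of the 2 lines did not overlap at either LIF state and the levels differed by at least 0.5 in the same direction, beside 91 of all 10318 members (0.882%). The 40 were chosen by size and by lack of overlap on these same arrays, and all members were not, so the 2 shares are not a like comparison. This description was added after the values were seen, and the genes shown here have no test of the level. Mcf2 was lower in the labelled knockout, with a difference from J1 of -0.69 with LIF and -0.60 without it on the log2 scale, and its LIF changes were 0.70 and 0.78. Cltb, a clathrin light chain, was lower there with differences of -0.62 and -0.59, with signals of 949 and 1167 in J1 and 663 and 711 in the labelled knockout with LIF, and its LIF changes were -0.70 and -0.67. The other 3 probe sets carry no single symbol and were higher in the labelled knockout, 1 of them by 1.035 with LIF and 1.032 without it, with LIF changes of -1.09 in each line.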
